A study of Mus musculus with 12 samples.

Results

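The 10 genes described here encode the cytosolic DNA sensor Cgas, its partner Sting1 and 8 genes of the mouse PYHIN locus (Aim2, Ifi203, Ifi204, Ifi206, Ifi209, Ifi211, Ifi213 and Mndal). They were chosen by family and function, with earlier results of these data in view, and all 10 were found among the 33696 genes of the deposited matrices. No level or fold change served as a threshold for the list. Some interferon-stimulated genes had already been seen to be high in green CD8-like cells of irradiated tumours, so a higher level of interferon-inducible members there is not independent evidence.

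The cells were CD90.2+ T cells from tumours of MC38, a mouse colorectal cancer line, grown in mice heterozygous for Kaede, a protein that light turns from green to red. The tumour-draining lymph node was lit for 5 minutes, so a red cell in the tumour carried protein converted in that node, and radiation followed immediately. T cells were enriched with CD4/CD8 beads before they were sorted by colour. The 6 conditions were RT D1 (a single 12 Gy dose to the tumour, harvest 24 hours later), NT D1 (no RT in the label, same harvest), RT D3 (12 Gy, harvest 72 hours later), NT D3, RT+FTY720 D3 (12 Gy and 10 µg of FTY720, an agent that holds lymphocytes in lymph nodes) and FTY720 D3 (FTY720 without RT). Each condition had 2 pools of 4 tumours, and every mouse carried Kaede and had its node lit.

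In each replicate, RT D1, NT D1 and NT D3 cells shared a 10x well, and RT D3, RT+FTY720 D3 and FTY720 D3 cells shared another. RT and NT at day 3 were therefore measured in different wells, while RT and NT at day 1, and RT+FTY720 and FTY720, were compared within wells. The filters kept 2740 of 2816 barcodes, at a median of 17857 to 20915 unique molecular identifiers (UMIs) per cell and well, and 0 barcodes were shared between wells. The pools held 39 to 587 cells. Clustering without the listed genes gave 1176 CD8-like cells, 591 Treg-like cells and 408 CD4 conventional-like cells. There were 154 cells named naive CD8-like and 54 named naive CD4-like, and 357 stayed unnamed. Levels are given as UMIs per 1000000 UMIs of the summed cells (CPM). Cd3e stood at 1049 CPM in the CD8-like, 761 CPM in the Treg-like and 761 CPM in the CD4 conventional-like cells, Cd8a at 1186 CPM in the CD8-like and Foxp3 at 735 CPM in the Treg-like cells. Of 15 macrophage and monocyte markers, 13 had a UMI in CD8-like cells, S100a8 and S100a9 had none, and their summed level was 24.2 to 55.6 CPM in the RT pools against 21.8 to 85.1 CPM in the unirradiated pools (NT and FTY720). Of 6 dendritic cell markers, 5 had a UMI there, at a summed 30.8 to 141 CPM in the RT pools against 24.3 to 102 CPM in the unirradiated pools, and 1 of 2 endothelial markers, at 33.8 to 91.1 CPM in the RT pools against 25.6 to 38.6 CPM in the unirradiated pools. In Treg-like cells the macrophage and monocyte markers summed to 21.3 to 251 CPM in the RT pools against 16.5 to 212 CPM in the unirradiated pools, and the dendritic cell markers to 155 to 554 CPM against 248 to 1263 CPM. The part of these markers in the results was not tested.

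Cgas binds double-stranded DNA in the cytosol and makes a cyclic dinucleotide, which the membrane protein Sting1 binds before it starts type I interferon signalling. PYHIN proteins carry a DNA-binding HIN domain, a pyrin domain or both. Aim2 binds cytosolic DNA and assembles an inflammasome, and Ifi204 is a mouse relative of human IFI16 described as a DNA sensor. The other listed genes are nuclear or poorly described members of the family, and many PYHIN genes are induced by interferon. In T cells these genes are of interest because DNA damage and DNA from dying tumour cells are known triggers of the pathway.

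Of the listed genes, 8 lie in 1 block on chromosome 1, in the order Aim2, Ifi206, Ifi213, Ifi209, Ifi204, Mndal, Ifi211 and Ifi203. The RefSeq annotation of GRCm38.p6 has 11 protein-coding genes in this block, the others being Ifi214, Ifi208 and Ifi207. Cgas and Sting1 lie on other chromosomes. Some PYHIN genes are close relatives, though the likeness of their transcripts was not measured here. How shared reads were counted is not given in the sources used here, so the split of UMIs between single PYHIN genes is uncertain.

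Promoter windows, from 250 bases before to 50 after an annotated start, were read from RefSeq GRCm38.p6 for 8 of the 10 genes. Ifi203 and Mndal had 2 starts each, which made 10 windows. The following stretches of 40 bases are shown because 6 PYHIN genes carry nearly the same run close to their starts. Capitals mark matches to GAAA, any 2 bases and GAAA (the core of the interferon-stimulated response element) and to the overlapping run AAAT, any base and GAAAG.
Ifi206: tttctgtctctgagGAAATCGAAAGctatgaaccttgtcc
Ifi213: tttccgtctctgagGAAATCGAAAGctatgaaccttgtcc
Ifi209: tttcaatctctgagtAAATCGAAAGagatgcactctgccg
Mndal: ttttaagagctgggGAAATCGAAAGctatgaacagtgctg
Ifi203: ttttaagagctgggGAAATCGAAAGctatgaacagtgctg
Ifi211: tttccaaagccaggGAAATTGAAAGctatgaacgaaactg

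The windows lie at chr1:173491269-173491568 (Ifi206, minus strand), chr1:173599223-173599522 (Ifi213, minus), chr1:173630609-173630908 (Ifi209, plus), chr1:173880138-173880437 (Mndal, minus), chr1:173942443-173942742 (Ifi203, minus) and chr1:173912997-173913296 (Ifi211, minus). The response element core, searched on both strands, was found in the windows of 5 genes (Ifi203, Ifi206, Ifi211, Ifi213 and Mndal), against 3.44% of all 32851 promoter windows of the table. The overlapping run, picked after these windows had been read, was found in those 5 and in Ifi209, against 0.432% of all windows. The run began 34 bases before the start in Ifi203, 35 in Mndal, 36 in Ifi211, 39 in Ifi206, 72 in Ifi213 and 78 in Ifi209. The windows of Aim2 and Cgas held neither, and TTCNNNGAA, the core of the gamma-activated site, was in 0 of the 10 windows, against 8.30% of all windows. The Mndal and Ifi203 windows shared an unbroken run of 139 bases, and those of Ifi206 and Ifi213 shared 135.

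**Figure D1:**
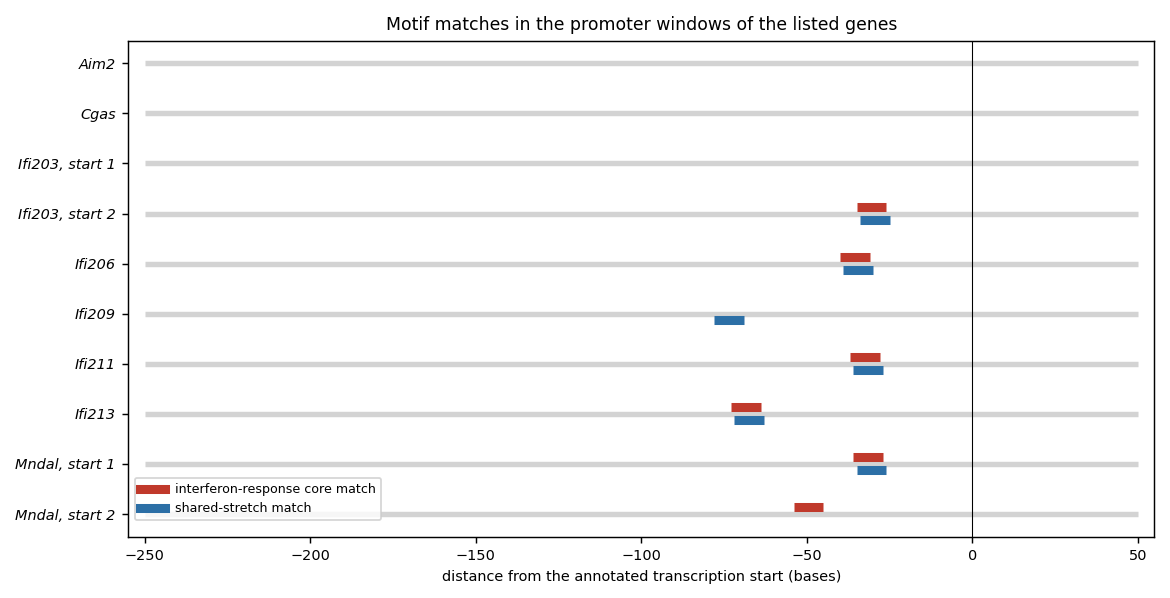
Matches to the interferon-stimulated response element core (red) and to the shared run (blue) in 10 promoter windows of 8 listed genes; the x axis is the distance from the annotated start in bases and each grey line is a window. In 6 PYHIN genes the shared run begins 34 to 78 bases before a start, and the Aim2 and Cgas lines carry no mark.

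In CD8-like cells, 7 of the 10 genes were higher in irradiated tumours over the 3 strata (day 1, day 3, and day 3 with FTY720), namely Ifi203, Ifi204, Ifi206, Ifi209, Ifi211, Ifi213 and Mndal. Cgas, Sting1 and Aim2 did not pass the threshold. The background was 2.96% of the 9297 genes tested called higher (edgeR quasi-likelihood test on UMIs summed per pool, Benjamini-Hochberg adjusted p below 0.05). The median log2 fold of the members was 0.76, beside −0.02 over all genes tested. Without either NT D3 pool 4 members were called, as Ifi211, Ifi213 and Mndal missed the threshold. Without the clusters of mixed lineage 2, Ifi204 and Ifi209, were called. Those clusters include cluster 9, led by interferon-stimulated genes, where all 7 stood highest. That fit therefore leaves out the cluster with their highest levels. Over the strata measured within wells, that is without the D3 pair, 0 of the 10 were called, with folds of the 7 between 0.46 and 2.24 (log2), all positive.

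Ifi209, a PYHIN gene, had 706 and 856 CPM in the RT D3 pools, against 243 and 203 CPM in the NT D3 pools. With FTY720 it had 821 and 743 CPM in the RT+FTY720 D3 pools, against 200 and 417 CPM in the FTY720 D3 pools. At day 1 it had 288 and 291 CPM in the RT D1 pools, against 203 and 164 CPM in the NT D1 pools. The RT pools lay above their unirradiated pools in each stratum, and the 4 late RT pools lay above all 6 unirradiated pools. How many of all genes stood apart like this was not counted. Such separations of pools, here and for the genes below, are a description only. The log2 fold over the strata was 1.30 ± 0.20 (SE, 12 pools, edgeR adjusted p = 0.0036).

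Ifi206 had 473 and 608 CPM in the RT D3 pools, against 154 and 140 CPM in the NT D3 pools. It had 533 and 495 CPM in the RT+FTY720 D3 pools, against 198 and 314 CPM in the FTY720 D3 pools, and 216 and 219 CPM in the RT D1 pools, against 178 and 116 CPM in the NT D1 pools. No RT pool overlapped the unirradiated pools of its own stratum. The log2 fold over the strata was 1.18 ± 0.20 (SE, edgeR adjusted p = 0.0076).

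Ifi204, the mouse relative of human IFI16, was the member with the highest fold. It had 166 and 237 CPM in the RT D3 pools, against 17.3 and 8.8 CPM in the NT D3 pools. It had 365 and 183 CPM in the RT+FTY720 D3 pools, against 0 and 41.1 CPM in the FTY720 D3 pools, where the 0 stands for 0 UMIs of 399609, which allows up to 7.51 CPM by counting error. The RT D1 pools had 10.0 and 14.1 CPM, and the NT D1 pools 13.6 and 3.2 CPM, so the groups overlapped at day 1 and nowhere else. The log2 fold over the strata was 3.01 ± 0.53 (SE, edgeR adjusted p = 0.0079).

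Ifi211, another PYHIN gene, had the same course, with 219 and 221 CPM in the RT D3 pools, against 35.3 and 27.6 CPM in the NT D3 pools. It had 327 and 212 CPM in the RT+FTY720 D3 pools, against 30.0 and 52.0 CPM in the FTY720 D3 pools. At day 1 the groups overlapped, with 22.1 and 37.6 CPM in the RT D1 pools, against 46.4 and 27.5 CPM in the NT D1 pools. The log2 fold over the strata was 1.77 ± 0.45 (SE, edgeR adjusted p = 0.045), and it missed the threshold with the replicate number as a block (edgeR adjusted p = 0.060) and in 9 of 12 fits without 1 pool, all but those without RT D1 replicate 1, RT D1 replicate 2 or NT D1 replicate 1.

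The others of the 7 changed less. Mndal, a nuclear PYHIN gene, averaged 786 ± 207 CPM in the RT pools and 509 ± 132 CPM in the unirradiated pools (SD, n = 6 each), a log2 fold of 0.64 ± 0.13 (SE, edgeR adjusted p = 0.018). Ifi203 averaged 589 ± 168 CPM in the RT pools and 372 ± 85.4 CPM in the unirradiated pools, a log2 fold of 0.68 ± 0.13 (SE, edgeR adjusted p = 0.012). Ifi213 averaged 270 ± 102 CPM in the RT pools and 148 ± 38.4 CPM in the unirradiated pools, a log2 fold of 0.85 ± 0.17 (SE, edgeR adjusted p = 0.015). In all 3 genes, 4 RT pools lay above the highest unirradiated pool and the RT D1 pools did not. This is a description only, since how many of all genes stood apart like this was not counted. Against the NT D1 pools alone, both RT D1 pools were higher for Mndal and Ifi203 but not for Ifi213.

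Cgas, Sting1 and Aim2 differed less between RT and unirradiated pools than the pools of a group differed among themselves. Cgas had 5.0 to 38.9 CPM (median 17.1) in the RT pools and 2.5 to 26.9 CPM (median 20.3) in the unirradiated pools, a log2 fold of 0.02 ± 0.32 (SE). Sting1 had 48.6 to 86.8 CPM (median 67.6) in the RT pools and 55.7 to 71.3 CPM (median 63.6) in the unirradiated pools, a log2 fold of 0.12 ± 0.12 (SE). Aim2 had 123 to 172 CPM (median 137) in the RT pools and 118 to 178 CPM (median 152) in the unirradiated pools, a log2 fold of 0.05 ± 0.11 (SE). The RT and unirradiated ranges over all strata overlapped in all 3 genes, as they also did for the called PYHIN genes. Within strata, Sting1 overlapped throughout. Cgas had 25.8 and 38.9 CPM in the RT D3 pools, above the 20.1 and 16.9 CPM of the NT D3 pools. At day 1 it ran the other way, with 16.9 and 16.2 CPM in the RT D1 pools, against 26.9 and 20.5 CPM in the NT D1 pools. Aim2 had 139 and 136 CPM in the RT D1 pools, above the 124 and 118 CPM of the NT D1 pools. Cgas was counted with 1061 UMIs in all cells, the lowest total of the members, which limits what could be seen of it.

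**Figure D2:**
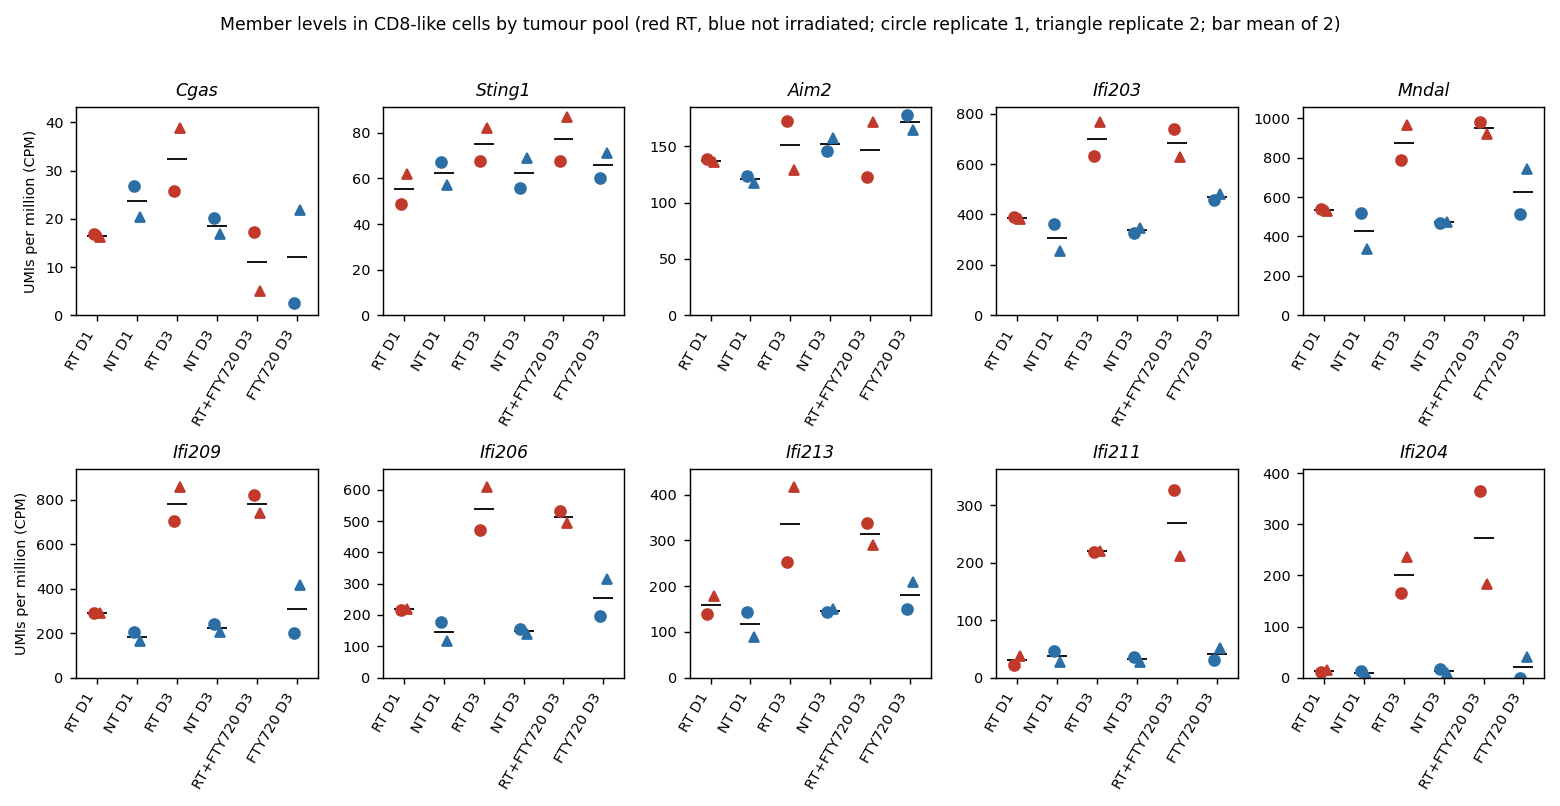
Level of each listed gene in CD8-like cells (y axis, CPM of the summed cells) in the 2 pools of each condition (x axis); red is RT, blue is unirradiated, circles are replicate 1, triangles replicate 2 and bars the mean of 2. Ifi204 and Ifi211 stand at 166 to 365 CPM in the late RT pools and at 0 to 52.0 CPM in all other pools.

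By stratum, the day 3 comparison called all 7 of these genes in CD8-like cells, against a background of 3.20% of 10194 genes called higher. Ifi204 had the highest log2 fold, 4.09 ± 0.60, followed by Ifi211 with 2.90 ± 0.31, Ifi206 with 1.96 ± 0.22, Ifi209 with 1.89 ± 0.24, Ifi213 with 1.28 ± 0.26, Ifi203 with 1.13 ± 0.16 and Mndal with 0.97 ± 0.20 (SE, edgeR adjusted p between 0.00061 and 0.018). The folds of Ifi206 and Ifi209 differed by less than their errors. This comparison lies between wells, so well and radiation cannot be told apart in it. Ifi213 and Mndal missed the threshold without NT D3 replicate 1, without NT D3 replicate 2 or without RT D3 replicate 2, and Ifi204 without NT D3 replicate 2, which left 4 calls. Without the mixed clusters 7 were called.

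Under FTY720, within wells, 4 members were called in CD8-like cells (Ifi204, Ifi206, Ifi209 and Ifi211), against a background of 2.18% of genes called higher. Ifi211 had a log2 fold of 2.62 ± 0.36 (SE, edgeR adjusted p = 0.0036) and Ifi209 one of 1.33 ± 0.25 (SE, edgeR adjusted p = 0.015). The count was 2 without FTY720 D3 replicate 1, 1 without RT+FTY720 D3 replicate 1, 2 without RT+FTY720 D3 replicate 2 and 7 in gated CD8 cells, and Ifi206 also missed the threshold without NT D3 replicate 2.

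At day 1, also within wells, edgeR and DESeq2 called 0 members in CD8-like cells, against a background of 0.0883%. An unadjusted p below 0.05 was found for 3 members, Ifi203, Ifi206 and Ifi209, and for 598 of all 10194 genes. The log2 folds of the 3 members were 0.36 ± 0.16, 0.61 ± 0.22 and 0.69 ± 0.24 (SE). The radiation difference at day 3 minus that at day 1 passed the threshold for Ifi211, with 3.09 ± 0.44 on the log2 scale (SE, edgeR adjusted p = 0.031), against a background of 0.118%, and for no other member. It was lost without either NT D3 pool, NT D1 replicate 1, RT D1 replicate 1 or RT D3 replicate 1. The 10 members had a median difference of 0.98 (log2), beside 0.00 over all genes.

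In CD4 conventional-like cells, the radiation comparison at day 3 called 6 of the 10 genes higher (Ifi203, Ifi204, Ifi206, Ifi209, Ifi211 and Mndal), against a background of 2.55% of 8538 genes. Ifi204 had 591 and 625 CPM in the RT D3 pools, against 29.0 and 65.7 CPM in the NT D3 pools, a log2 fold of 3.69 ± 0.38 (SE, edgeR adjusted p = 0.00037). Mndal had 2114 and 1611 CPM in the RT D3 pools, against 859 and 801 CPM in the NT D3 pools, a log2 fold of 1.29 ± 0.24 (SE, edgeR adjusted p = 0.0084). Ifi211 had 358 and 332 CPM in the RT D3 pools, against 58.1 and 53.7 CPM in the NT D3 pools, a log2 fold of 2.75 ± 0.36 (SE, edgeR adjusted p = 0.00095). In all 3 genes both RT D3 pools lay above both NT D3 pools. The share of all genes that stood apart in this way was not counted, so the separation is a description only. The RT D3 and NT D3 pools also lay in different wells. Ifi213 reached 1.07 ± 0.27 (SE, edgeR adjusted p = 0.054).

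At day 1, against a background of 0.0117%, the CD4 conventional-like cells had 0 calls with edgeR and DESeq2 and 0 members at an unadjusted p below 0.05, and the log2 folds of the 7 PYHIN members ran from −0.42 to −0.15. The day 3 minus day 1 difference passed for Ifi204, Ifi206, Ifi209 and Ifi211, with 3.97 ± 0.55, 2.23 ± 0.38, 2.60 ± 0.32 and 3.02 ± 0.52 on the log2 scale (SE, edgeR adjusted p = 0.0029, 0.013, 0.0024 and 0.013), against a background of 0.726%. Over the 3 strata, edgeR and DESeq2 called 0 of 9 members tested, against a background of 0% of 6478 genes with edgeR. An unadjusted p below 0.05 was found for 5 members and for 625 of all 6478 genes. Under FTY720 edgeR called 0 (background 0.0117%), DESeq2 called 1, and 5 had an unadjusted p below 0.05, with FTY720 D3 represented by 1 pool of 12 cells because the other held 3. Without the mixed clusters, and so without cluster 9, the day 3 calls were 2 (Ifi204 and Ifi209). In that fit the log2 folds were 0.40 for Mndal, 0.95 for Ifi211 and 0.57 for Ifi203. The day 3 minus day 1 calls were then 0, at 1.70 for Ifi204 and Ifi206, 1.66 for Ifi209 and −0.13 for Ifi211, which turned. Without NT D3 replicate 2 the day 3 calls were 3 and the calls of the difference 2, and without NT D1 replicate 2 the difference had 7. At day 3, Ifi203 and Mndal missed the threshold without NT D3 replicate 1 or without RT D3 replicate 1 too. In the difference, Ifi211 also missed it without NT D1 replicate 1, RT D1 replicate 1 or RT D3 replicate 1, and Ifi206 without RT D1 replicate 2 or RT D3 replicate 2.

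Treg-like cells had 1 called member at day 3 and 1 under FTY720, which was Ifi211 in both. It had 99.6 and 128 CPM in the RT D3 pools, against 43.5 and 27.7 CPM in the NT D3 pools, a log2 fold of 1.88 ± 0.34 (SE, edgeR adjusted p = 0.028, background 0.375%). With FTY720 it had 260 and 394 CPM in the RT+FTY720 D3 pools, against 16.5 and 36.7 CPM in the FTY720 D3 pools, a log2 fold of 3.41 ± 0.41 (SE, edgeR adjusted p = 0.0026, background 0.0363%). These sums were small, 10 and 13 cells with RT+FTY720 and 8 and 23 cells with FTY720. The smallest unirradiated sum had 121117 UMIs, so its level rests on few UMIs. The day 3 call was lost without any 1 of the 2 RT D3 and 2 NT D3 pools, and the FTY720 call was lost without FTY720 D3 replicate 2. Ifi206 had 735 and 446 CPM in the RT D3 pools, against 247 and 141 CPM in the NT D3 pools, and missed the threshold (edgeR adjusted p = 0.053).

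Over the 3 strata, edgeR called 0 of the 8 members tested in Treg-like cells, against a background of 0.244%, while DESeq2 called 3. An unadjusted p below 0.05 was found for 4 members and for 619 of all 6964 genes. The log2 folds were 1.54 ± 0.37 for Ifi211, 1.08 ± 0.23 for Ifi206, 0.82 ± 0.26 for Ifi209 and 0.72 ± 0.19 for Ifi213 (SE). Cgas and Ifi204 were too low to be tested in this fit. By stratum Ifi204 was tested and not called, with an unadjusted p below 0.05 (edgeR) at day 3 and under FTY720. Of all 8270 genes, 845 and 916 had such a p. Ifi204 had 9.6 to 155 CPM in the RT pools and 0 to 9.4 CPM in the unirradiated pools. At day 1 edgeR and DESeq2 called 0 members in Treg-like cells, with 0 at an unadjusted p below 0.05, and for the day 3 minus day 1 difference both called 0, with 2 (Ifi206 and Ifi211) at an unadjusted p below 0.05. The background of both comparisons was 0% of 8270 genes called higher with edgeR. For the difference, 373 of these genes had an unadjusted p below 0.05. The Treg-like sums of the RT pools held 10 to 146 cells, and the smallest had 173016 UMIs. The radiation difference of Treg-like minus CD8-like cells was called for 0 members by edgeR and DESeq2, against a background of 0% of 8644 genes with edgeR, with 0 members at an unadjusted p below 0.05. The differences ran from −0.52 ± 0.25 (Ifi209) to 0.24 ± 0.77 (Ifi204) on the log2 scale (SE), so no difference in response was detectable at this depth.

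**Figure D3:**
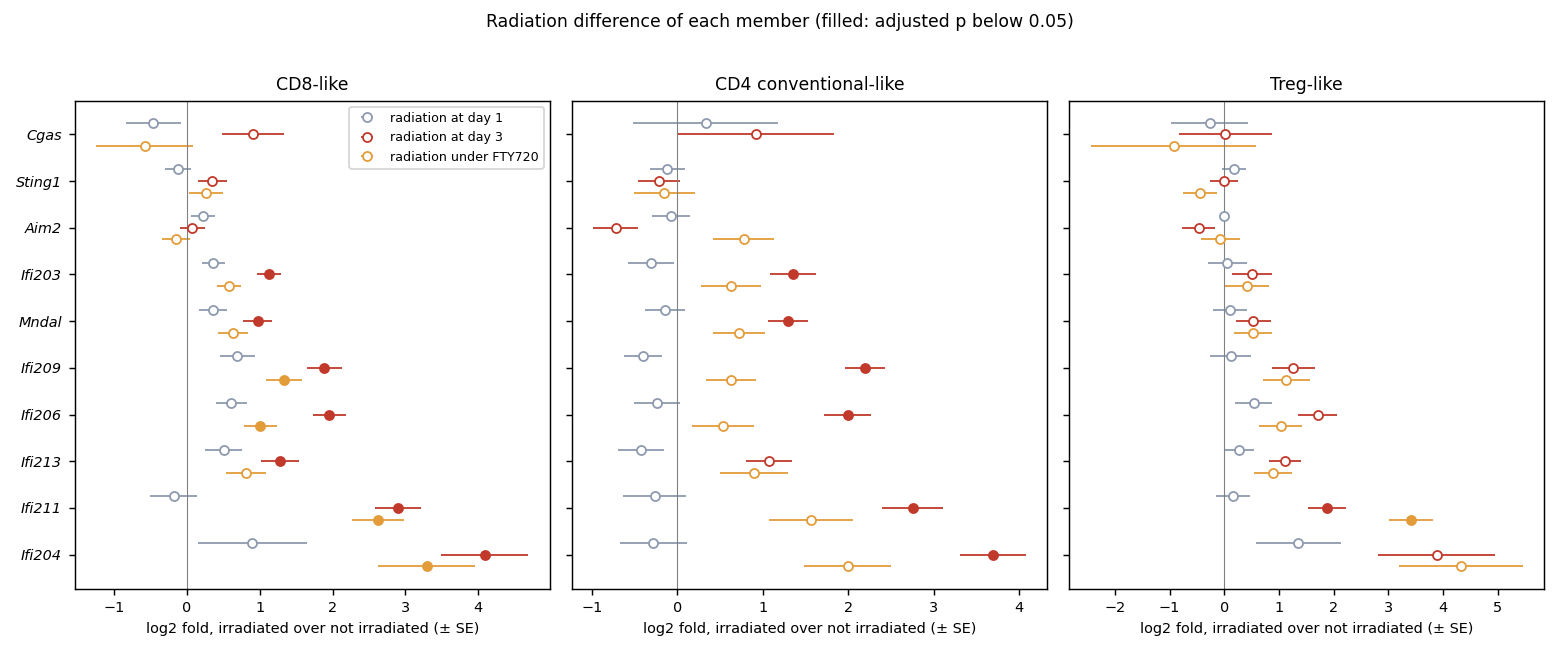
Log2 fold of irradiated over unirradiated tumours (x axis, with SE) for each listed gene (rows) at day 1 (grey), day 3 (red) and under FTY720 (orange) in 3 cell classes; filled points have an adjusted p below 0.05 and a point with an SE above 2 (Cgas under FTY720 in CD4 conventional-like cells) is not drawn. The PYHIN rows below Aim2 lie right of 0 at day 3 in all 3 classes, from 0.51 to 4.09, and no day 1 point is filled.

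Time without radiation had no call. NT D3 against NT D1 gave 0 called members and 0 called genes in each of the 3 classes with edgeR, and DESeq2 called 0 members. An unadjusted p below 0.05 was found for 1 member (Aim2 in Treg-like cells, log2 fold 0.66 ± 0.25). In those cells 330 of all 8270 genes had such a p. In irradiated tumours, D3 against D1 called 6 members in CD8-like cells (all of the 7 but Mndal), 7 in CD4 conventional-like cells and 1, Ifi211, in Treg-like cells, against backgrounds of 1.87%, 2.49% and 0.496% called higher. That comparison also lies between wells and shares its RT D3 pools with the day 3 radiation comparison. The CD8-like count was 1 without either RT D1 pool and 2 without RT D3 replicate 2, the CD4 conventional-like count was 4 without RT D1 replicate 2, and the Treg-like call was lost in 10 of 12 such omissions. RT+FTY720 and FTY720 against RT and NT without it at day 3 called 0 members in the 3 classes with edgeR and DESeq2, against backgrounds of 0.00981% (CD8-like), 0.0117% (CD4 conventional-like) and 0% (Treg-like) called in either direction, and 4 member values over the 3 classes had an unadjusted p below 0.05.

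Naive CD8-like cells had at least 5 cells in 6 pools only, of NT D1, RT D1 and NT D3. With no RT D3 pool, the radiation comparison in these cells rested on day 1 alone. None of the 7 members tested was called there with edgeR or DESeq2, against a background of 0% of 6455 genes called higher with edgeR, and 0 had an unadjusted p below 0.05. Ifi204 and Ifi211 had 0 UMIs in these cells among 2744974, which allows up to 1.09 CPM over the group by counting error. In naive CD4-like cells both also had 0 UMIs, among 629805, which allows 4.76 CPM. The 2 naive classes held the 154 cells of cluster 6 and the 54 cells of cluster 15 alone. No cell of the mixed clusters, and so of the interferon-led cluster 9, entered them. The 0 UMIs and the lack of calls there may therefore follow in part from how the classes were made. Mndal stood at 481 and 312 CPM in the naive CD8-like cells of the RT D1 pools, against 397 and 381 CPM in the NT D1 pools, with overlapping groups.

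Kaede colours follow the hashtag names of the matrices, which in replicate 2 are exchanged against the tag numbers of the labels, so results by colour hold for those names only. In CD8-like cells the radiation comparison called 5 members in green cells (Ifi204, Ifi206, Ifi209, Ifi211 and Mndal, background 5.12% higher). In red cells edgeR called 0 of any gene, and DESeq2 called 5 members. There 7 members had an unadjusted p below 0.05, beside 737 of all 7732 genes tested. The difference between the colours was called for 0 members by edgeR and DESeq2 (background 0.0129% in either direction). For it 2 members (Aim2 and Ifi204) had an unadjusted p below 0.05, beside 646 of all 7732 genes. Ifi209 had a median of 563 CPM in red cells of the RT pools, against 241 CPM in red cells of the unirradiated pools. Its medians in green cells were 880 CPM in the RT pools and 210.4 CPM in the unirradiated pools. The log2 folds were 1.17 ± 0.28 in red and 1.45 ± 0.28 in green cells (SE). With the colours of the labels' tag numbers the counts were 6 in red and 0 in green cells. By the matrix names the green count was 2 without either NT D3 pool and 3 without RT D3 replicate 2 or without the mixed clusters.

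Red against green cells of the same pools gave 1 called member in CD8-like cells. Mndal was lower in red cells, by a log2 difference of −0.35 ± 0.11 (SE, edgeR adjusted p = 0.049), in 9 of 12 pools, against a background of 10.2% of 6939 genes called in either direction. That is 1 of 9 members tested, a share near the background, so it is no result about the members. The call was lost without any 1 of 9 pools, the difference was −0.13 (edgeR adjusted p = 0.57) without the mixed clusters, and it turned to 0.16 with the colours of the labels' tag numbers. Ifi211 ran the other way, higher in red cells of 10 of 12 pools, and missed the threshold (log2 difference 0.38 ± 0.15, SE, edgeR adjusted p = 0.11). In Treg-like and CD4 conventional-like cells edgeR and DESeq2 called 0 members between colours (backgrounds 1.37% and 0.0929%), with 1 and 0 at an unadjusted p below 0.05. Of all genes, 1054 of 6954 and 377 of 5380 had such a p. In Treg-like cells radiation was called for 0 members in red and in green cells with both tools (backgrounds 0% and 0.0126%), with 4 and 2 at an unadjusted p below 0.05. The difference between the colours (background 0.0126% in either direction) was called for 0, with 1 (Cgas) at an unadjusted p below 0.05. Of all 7948 genes, 521 in red, 523 in green and 336 for the difference had such a p.

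Lineages were compared in cells gated on Cd8a, Cd8b1, Cd4 and Foxp3 UMIs alone, 417 CD4 Foxp3+, 454 CD4 Foxp3- and 1580 CD8 cells, in 11 pools with all 3. Sting1 differed between all 3 lineages. It averaged 136 ± 18.3 CPM in CD4 Foxp3+ cells (SD, n = 12), 92.9 ± 14.9 CPM in CD4 Foxp3- cells (n = 11) and 65.4 ± 10.4 CPM in CD8 cells (n = 12). The lowest CD4 Foxp3+ pool, 105 CPM, lay above the highest CD8 pool, 85.8 CPM. The log2 difference was 1.01 ± 0.09 for CD4 Foxp3+ against CD8 (SE, edgeR adjusted p = 3.7e-10), 0.53 ± 0.10 for CD4 Foxp3+ against Foxp3- (adjusted p = 0.00016) and 0.48 ± 0.10 for CD4 Foxp3- against CD8 (adjusted p = 0.00027).

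Cgas and Aim2 did not follow Sting1. Cgas averaged 11.8 ± 8.4 CPM in CD4 Foxp3+ cells, 10.9 ± 8.9 CPM in CD4 Foxp3- cells and 21.7 ± 6.5 CPM in CD8 cells (SD), and was lower in both CD4 groups than in CD8 cells (log2 differences −0.71 ± 0.23 and −0.92 ± 0.24, SE, edgeR adjusted p = 0.013 and 0.0031). The CD4 Foxp3+ and Foxp3- pools overlapped and were not told apart (0.21 ± 0.28). Aim2 was lower in CD4 Foxp3+ cells than in CD4 Foxp3- cells, by −0.50 ± 0.13, and than in CD8 cells, by −0.44 ± 0.12 (SE, edgeR adjusted p = 0.0038 and 0.0041).

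Most PYHIN members were higher in CD4 Foxp3- than in CD8 cells. Of the 10 members, 7 were called higher (Sting1 and the PYHIN genes Ifi203, Ifi204, Ifi209, Ifi211, Ifi213 and Mndal) and 1, Cgas, lower, against backgrounds of 18.1% and 17.3% of 8434 genes. The count of 1 lower is not above its background, so it is no result about the members as a group. Ifi204 averaged 263 ± 275 CPM in CD4 Foxp3- and 77.9 ± 110 CPM in CD8 cells, a log2 difference of 2.04 ± 0.23 (SE, edgeR adjusted p = 3.6e-08). Mndal averaged 1151 ± 570 CPM in CD4 Foxp3- and 605 ± 217 CPM in CD8 cells, a log2 difference of 0.77 ± 0.12 (SE, edgeR adjusted p = 5.3e-06). These SDs include the radiation difference, since the pools of all conditions enter.

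Against CD4 Foxp3- cells, CD4 Foxp3+ cells had 1 member higher, Sting1, and 7 lower (Aim2, Ifi203, Ifi204, Ifi206, Ifi211, Ifi213 and Mndal), against backgrounds of 15.9% and 15.7%. The count of 1 higher is not above its background and is no result about the members as a group. Ifi204 had 0 to 152 CPM (median 10.0) in CD4 Foxp3+ pools and 26.1 to 669 CPM (median 101) in CD4 Foxp3- pools, a log2 difference of −3.17 ± 0.31 (SE, edgeR adjusted p = 2.1e-09). Against CD8 cells, CD4 Foxp3+ cells had 1 of 10 members higher (Sting1) and 3 lower (Aim2, Cgas and Ifi204), against backgrounds of 21.3% and 20.6%. These counts are below or near the backgrounds, so they are no result about the members as a group. Ifi209 did not pass in either comparison of CD4 Foxp3+ cells.

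**Figure D4:**
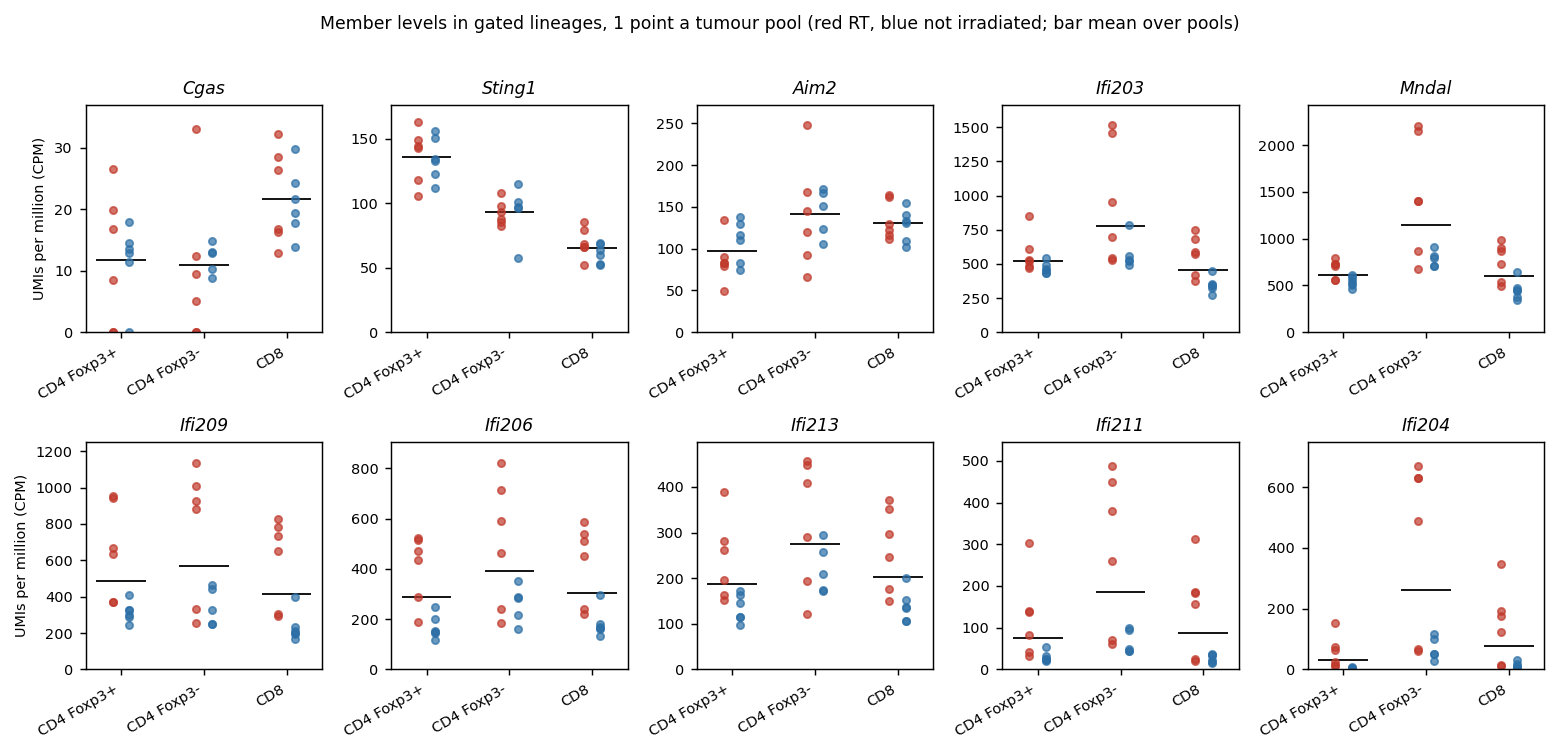
Level of each listed gene (y axis, CPM) in CD4 Foxp3+, CD4 Foxp3- and CD8 cells gated on 4 marker genes; each point is a tumour pool, red RT and blue unirradiated, and bars are means over pools. Sting1 steps down over the lineages, at means of 136, 92.9 and 65.4 CPM, with red and blue points mixed, and Ifi204 is highest in CD4 Foxp3- cells.

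Among the 16 clusters, whose levels are a description only, the 7 PYHIN members stood highest in cluster 9, a mixed cluster of 150 cells led by interferon-stimulated genes, Ifi204 itself among its leading genes. Mndal had 1924 CPM there and 838 CPM in the next cluster, Ifi203 1542 and 684 CPM, Ifi209 1337 and 532 CPM, and Ifi204 323 and 81.7 CPM. The lowest levels of Ifi203, Ifi206, Ifi209 and Ifi213, at 128, 56.4, 77.0 and 33.8 CPM, were in cluster 7, a CD8-like cluster. Cgas, Aim2 and Sting1 peaked elsewhere. Cgas was highest, at 56.3 CPM, in cluster 12, led by cell cycle genes, Aim2 at 201 CPM in cluster 13, led by p53 target genes, and Sting1 at 152 CPM in cluster 1, which is Treg-like.

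**Figure D5:**
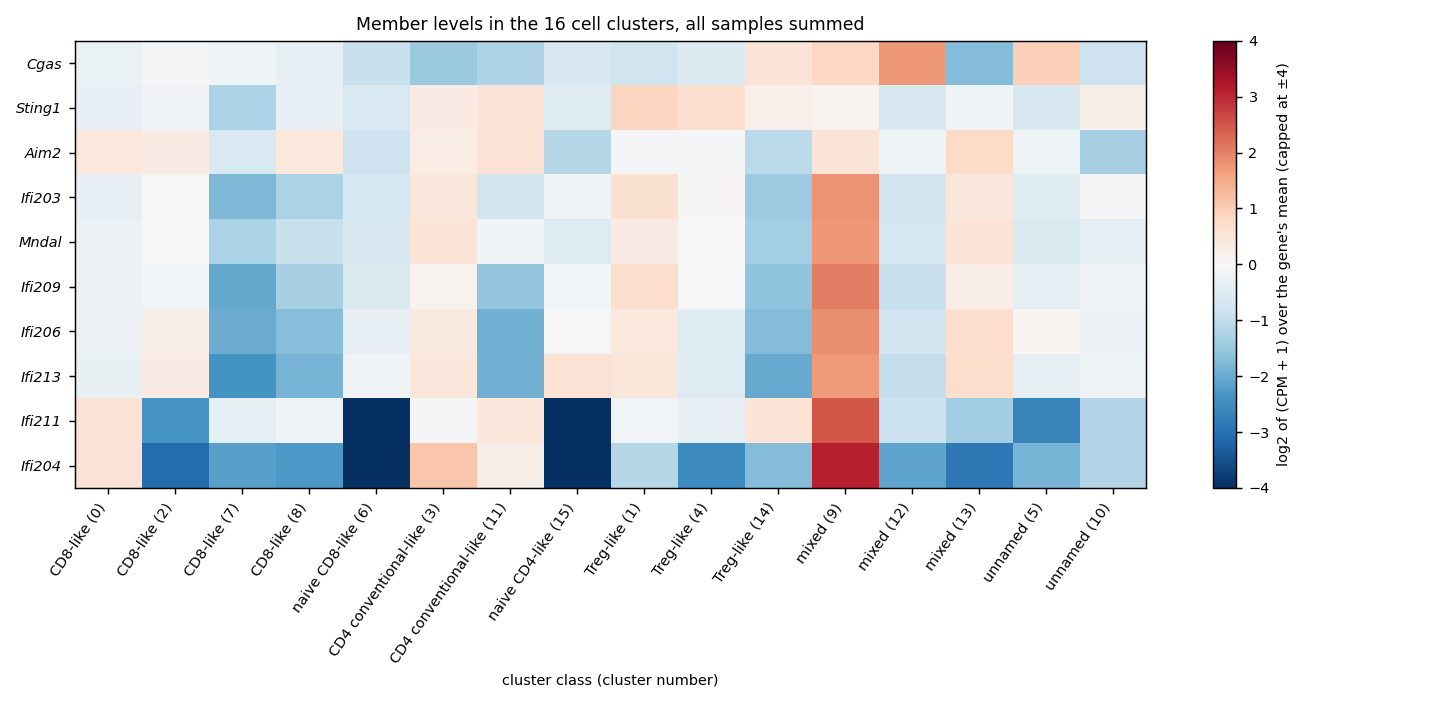
Level of each listed gene (rows) in the 16 clusters (columns, with class and number), all samples summed, as log2 of CPM + 1 over the gene's mean of the 16 clusters, with colours ending at ±4. The 7 PYHIN rows from Ifi203 down are reddest in the interferon-led mixed cluster 9, and Ifi204 and Ifi211 are at 0 UMIs in the naive clusters 6 and 15.

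The other genes of the locus and pathway were taken from lists. Of 10 further PYHIN locus genes, 5 were in the matrices and 2, Ifi208 and Ifi214, had enough counts. Both were called higher over the strata in CD8-like cells, with log2 folds of 1.15 ± 0.16 and 1.57 ± 0.24 (SE, edgeR adjusted p = 0.0028 and 0.0036). Of 28 interferon-stimulated genes, 27 were tested there and 25 were called higher and 0 lower, at a median log2 fold of 1.60 beside −0.02 over all genes. Mx1, a dynamin-like antiviral GTPase, had a log2 fold of 1.95 ± 0.20, Mx2 one of 2.34 ± 0.26, and Ifit3b one of 2.08 ± 0.23 (SE, edgeR adjusted p = 0.00093, 0.00094 and 0.00094). That list holds genes already seen to be high in these cells and is not independent evidence.

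Of 30 STING pathway genes, 27 were tested over the strata in CD8-like cells, 4 were called higher and 0 lower, at a median log2 fold of −0.05. The background was 2.96% of 9297 genes called higher. The 4 were Irf7, an interferon-induced transcription factor (1.42 ± 0.18), Zbp1, a sensor of Z-form nucleic acid (1.23 ± 0.20), Samhd1, which breaks down nucleotides (1.01 ± 0.19), and Adar, an RNA-editing enzyme (0.68 ± 0.15), with edgeR adjusted p of 0.0025, 0.0050, 0.012 and 0.022 (log2 folds with SE). Zbp1 is also on the list of interferon-stimulated genes, so it enters both counts. Of 11 AIM2 inflammasome genes, 10 were in the matrices and 7 were tested, and 1, the inflammatory caspase Casp4, was called higher, at a log2 fold of 0.60 ± 0.14 (SE, edgeR adjusted p = 0.029). In CD4 conventional-like cells at day 3, 25 of 28 interferon-stimulated genes, 3 of 24 STING pathway genes and 1 of 7 inflammasome genes, Casp8, were called higher and 0 lower. The background there was 2.55% of 8538 genes called higher.

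Likeness was measured over 20 class and condition sums of at least 20 cells, as Pearson's r of log2 CPM with 8384 genes of at least 10 CPM on average. These sums share wells and depth, so r is a description. Mndal was most like Ifi203 (r = 0.97), Slfn5 (0.96) and Gbp9 (0.95), and Ifi203 most like Mndal (0.97), Nmi (0.96) and Gbp4 (0.96). Ifi209 was most like Trim30a (0.97), Helz2 (0.96) and Adar (0.96), and Ifi206 most like Gm20559 (0.96), Ifi209 (0.95) and Rnf213 (0.95).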

How the data were processed

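The deposited matrices hold UMI counts of genes and hashtags in each cell, made with Cell Ranger 8.0.1 on mm39 per the submitters' processing notes, and the deposited contig tables hold UMI counts per TCR contig. A barcode was kept with 500 genes or more, no more than 10% of UMIs from mitochondrial genes, and a top hashtag of 20 UMIs or more that was 3 times the second or more, which left out 76 barcodes. No doublet caller was run. The listed genes and their locus neighbours were kept out of the 2000 variable genes (30 components, 15 neighbours, Leiden resolution 1.0, scanpy 1.11.5). Cluster names needed at least 3 markers, and cells of 3 mixed clusters (293 cells) were given to classes by lineage markers. Gates were CD8 (at least 2 Cd8a and Cd8b1 UMIs, no Cd4), CD4 Foxp3+ (at least 1 Cd4 UMI, at least 2 Foxp3 UMIs, no Cd8a or Cd8b1) and CD4 Foxp3- (Cd4 without Foxp3 or CD8 UMIs).

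Counts were summed per pool and class (at least 5 cells) and tested with edgeR 4.0.16 (quasi-likelihood, filterByExpr, TMM, Benjamini-Hochberg at 0.05 over all genes tested), with DESeq2 1.42.0 as an alternative. Percent backgrounds are edgeR shares at the adjusted threshold, so they do not serve for DESeq2 counts or for counts at an unadjusted p. Such member counts without their own share of all genes are a description only. SE is the absolute log2 fold over the root of F. CPM are UMIs per 1000000 of a sum, without TMM, and intervals and limits of 3 counts cover counting error only. CD8-like sums held 399609 to 6840928 UMIs. The labels' replicate number marks the well, so it pairs the 3 conditions of a well; over genes, the replicate 1 minus replicate 2 differences of CD8-like cells correlated at −0.19 to 0.15 within those 6 pairs of conditions. P-values measure the spread between pools of tumours. For red against green, the gated lineages and Treg-like minus CD8-like, the pool was a block. Their p-values measure how differences within a pool vary over the pools. All members are named; of each list at most 4 genes past the threshold are, by smallest adjusted p. Members, lists and tests were chosen with earlier results of these data known. RefSeq promoters are of GRCm38.p6, not mm39, and were used for sequence only. No other column of per-sample values was left out (0).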

Additional observations from a re-analysis of the deposited data

Results flagged for a closer look

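The radiation difference of 4 genes was larger at day 3 than at day 1 by a test of that difference. In CD8-like cells this was Ifi211, by 3.09 ± 0.44 on the log2 scale (SE, edgeR adjusted p = 0.031). In CD4 conventional-like cells the values were 3.97 ± 0.55 for Ifi204, 2.23 ± 0.38 for Ifi206, 2.60 ± 0.32 for Ifi209 and 3.02 ± 0.52 for Ifi211 (edgeR adjusted p between 0.0024 and 0.013). Without the clusters of mixed lineage all 4 of these calls in CD4 conventional-like cells were lost (edgeR adjusted p between 0.16 and 0.99), with 1.70 for Ifi204 and Ifi206, 1.66 for Ifi209 and −0.13 for Ifi211. Those clusters include the interferon-led cluster 9, where these genes stood highest. The RT D3 pools of this difference stood in other wells than the rest, and the part of the well in it was not tested.

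In 4 of 60 groups of 5 or 6 pools, 1 pool stood far from the others of its group, and chance alone gives about 1 in 20. In CD8-like cells, Ifi209 had 417 CPM in FTY720 D3 replicate 2, against 243 CPM in the next highest unirradiated pool. In Treg-like cells of RT+FTY720 D3 replicate 2, Ifi204 was high at 155 CPM (28 UMIs), with the next RT pool at 52.2 CPM, and Sting1 was low at 83.2 CPM (15 UMIs), with the next RT pool at 128 CPM. In CD4 conventional-like cells, Sting1 had 124 CPM in NT D1 replicate 2, against 108 CPM in the next unirradiated pool.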

How the results depend on the processing

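Counts of called members are given here with the alternative first and the main count in brackets. Comparisons not named differed by less than 1.5 times. The share of all genes called is not given for each alternative. Over the strata in CD8-like cells, the number of all genes called also rose with DESeq2 and with no filter, as given below. A higher member count is therefore no result about the members by itself. With DESeq2 they were 2 (1) for RT day 3 against day 1 in Treg-like cells, 3 (1) for radiation at day 3 and 3 (0) over the strata in Treg-like cells, 7 (4) and 2 (1) for the day 3 minus day 1 difference in CD4 conventional-like and CD8-like cells, 5 (0) in red CD8-like cells and 1 (0) under FTY720 in CD4 conventional-like cells. With no filter on low counts they were 1 (0) for FTY720 in CD8-like cells, 3 (1) for RT day 3 against day 1 in Treg-like cells, 2 (0) for radiation at day 1 in CD8-like cells, 5 (1) at day 3 in Treg-like cells, 7 (4) and 5 (1) for the day 3 minus day 1 difference in CD4 conventional-like and CD8-like cells, 1 (0) for red minus green and 7 (0) in red CD8-like cells, 2 (0) in green and 4 (0) in red Treg-like cells, 5 (0) over the strata in CD4 conventional-like and in Treg-like cells, 2 (0), 7 (4) and 3 (1) under FTY720 in CD4 conventional-like, CD8-like and Treg-like cells, and 2 (1) for red against green in CD8-like cells. In gated cells they were 5 (1) for radiation at day 3, 4 (0) in red cells, 3 (0) over the strata and 0 (1) under FTY720 in Treg-like cells, 0 (1) for the day 3 minus day 1 difference, 1 (0) in red cells and 7 (4) under FTY720 in CD8-like cells, and 2 (0) under FTY720 and 1 (0) for red against green in CD4 conventional-like cells. Without the mixed clusters, which include the interferon-led cluster 9 with the highest PYHIN levels, they were 3 (7) for RT day 3 against day 1, 2 (6) for radiation at day 3 and 0 (4) for the day 3 minus day 1 difference in CD4 conventional-like cells, and 3 (5) in green cells, 2 (7) over the strata and 0 (1) for red against green in CD8-like cells. Red against green in CD8-like cells also had 0 (1) with at least 10 cells per sum, without cells with 2 TCR beta chains and with colours by tag number, which gave 0 (5) in green and 6 (0) in red CD8-like cells. RT day 3 against day 1 in Treg-like cells had 0 (1) with at least 10 cells. With the replicate number as a block it had 0 (1), Ifi211 over the strata in CD8-like cells had an edgeR adjusted p of 0.060, and no other count of called members moved by over 1.5 times. Over the strata within a well, CD8-like cells had 0 (7). The sign turned for Ifi211 in the day 3 minus day 1 difference of CD4 conventional-like cells without the mixed clusters (−0.13, log2) and for Mndal in red against green CD8-like cells by tag number (0.16). The causes were not tested. Of 1525 alternative values of 71 called folds, 1353 kept direction and call, 170 kept direction only and 2 turned.

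Leaving out 1 pool at a time, a lone pool then taking its spread from the other groups, gave 4 to 7 called members in CD4 conventional-like, 1 to 7 in CD8-like and 0 to 2 in Treg-like cells for RT day 3 against day 1, 3 to 7, 4 to 7 and 0 to 3 for radiation at day 3, 2 to 7 and 0 to 2 in CD4 conventional-like and CD8-like cells for the day 3 minus day 1 difference, 4 to 7 in CD8-like and 0 to 3 in Treg-like cells over the strata, 1 to 5 and 0 to 1 under FTY720, 2 to 7 in green CD8-like cells, 0 to 1 in red CD8-like, red Treg-like and red against green CD8-like cells, and 8, 4 to 5 and 6 to 9 in the gated comparisons of CD4 Foxp3+ against CD4 Foxp3-, CD4 Foxp3+ against CD8 and CD4 Foxp3- against CD8. Scaling to total counts changed the called genes, higher and lower, to 261 and 160 (from TMM's 326 and 114) at day 3, 182 and 177 (222 and 136) under FTY720, 315 and 265 (396 and 194) in green cells, and 272 and 427 (382 and 329) for red against green, all in CD8-like cells. Over the strata in CD8-like cells, 337 genes were called in all, against 584 with DESeq2, 929 with no filter, 53 without the mixed clusters, 15 within a well and 158 to 379 without 1 pool. The smallest sums held 8 Treg-like and 10 CD4 conventional-like cells, which limits what those classes could show.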
